A study of Mus musculus with 10 samples.

Results

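The tissue described here is the normal dorsal telencephalon of the mouse at E14.5, the pallium from which the cerebral cortex forms. It was taken as the 5 of 10 samples that the titles name as controls. The controls had the genotype Dot1l-cKO f/+ without a Cre allele on the C57BL/6 strain, so they carried a single floxed Dot1l allele beside an unmodified allele, and none was free of the conditional allele. In the other 5 samples, of the genotype Dot1l-cKO f/f with 1 Cre allele, Cre removes Dot1l, the gene of a methyltransferase of histone H3. No genotypes are compared below. The question is what total RNA of the control tissue holds, and how far the controls differ from each other.

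At this stage radial glia line the ventricle and divide, intermediate progenitors divide in the subventricular zone, and young glutamatergic neurons settle in the cortical plate. GABAergic interneurons are not born in the dorsal telencephalon but migrate in from the ganglionic eminences below it. Meninges cover the tissue, blood vessels run through it, and at its medial edge it passes into the cortical hem and the choroid plexus. Total RNA depleted of ribosomal RNA shows messenger RNAs beside RNAs that have no poly(A) tail, such as replication-dependent histone messages and the structured RNAs made by RNA polymerase III.

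The libraries held 54202349, 55807143, 64582713, 66310598 and 62996319 counts in controls 1 to 5. Levels of a gene across libraries are given as CPM, counts relative to the TMM-scaled library total, and levels across genes as TPM, which also divides by the length of the merged exons. Of 43629 gene identifiers, 20042 had a count in every control, 16708 had none in any, and 13007 reached 1 CPM in every control. These 13007 included 12212 of the 21551 protein-coding genes and 437 of the 5694 long noncoding RNA genes. A count of 3, the level below which a 0 cannot be told from a low level, stood for 0.0435 to 0.0590 CPM. No pair of libraries agreed within counting error (chi-square per degree of freedom between 34.2 and 399, with the mitochondrial rRNAs included). This measure cannot tell whether libraries come from separate embryos. Each was taken as 1 replicate because the labels call them biological replicates. The labels do not state the number of embryos behind each.

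The most abundant transcripts per length were not messages but structured RNAs and the mitochondrial rRNAs. Rn7sk, the 7SK RNA that holds the elongation factor P-TEFb inactive, stood first with 157271 TPM ± 6015 (SD, n = 5). Rmrp, the RNA of the endonuclease RNase MRP, had 83933 TPM ± 7535, and Rpph1, the RNA of RNase P that trims tRNA precursors, followed at rank 4 with 36462 TPM ± 3721. The mitochondrial rRNAs mt-Rnr2 and mt-Rnr1 held ranks 3 and 5, but mt-Rnr2 ran from 5620 TPM in control 2 to 120634 TPM in control 1 and lay above Rmrp in controls 1, 4 and 5. Rn7sk, Rmrp and Rpph1 together took 27.8% of all TPM, and protein-coding genes took 56.6% ± 5.18, so TPM of messages are shares of a total that these RNAs enlarge. Behind them came the Y RNA Rny3, bound by the Ro60 protein, with 8797 TPM ± 5181 at rank 6, and the related Rny1 with 2302 TPM ± 1676 at rank 22.

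The sequences of these RNAs are shown because they head the abundance order among RNAs of the nucleus (Rn7sk, Rmrp and Rpph1) or differ most between libraries among the structured RNAs (Rny1 and Rny3). They are transcripts of the GENCODE vM21 annotation of GRCm38. In the Y RNAs, capitals mark every run of 8 or more bases that both share, and in Rmrp and Rpph1 every such run shared by that pair over their whole length. The partner of the first run of Rmrp begins at base 311 of Rpph1 and is not printed. In Rn7sk they mark each GATC. Rny1 and Rny3 lie at chr6:47788069-47788180 on the minus strand and chr6:47781624-47781725 on the plus strand. Rmrp lies at chr4:43492788-43493058, the part of Rpph1 at chr14:50807468-50807767 and the part of Rn7sk at chr9:78175334-78175633, all on the minus strand. Rpph1 and Rn7sk are given to base 300 of 319 and of 331.
Rny1: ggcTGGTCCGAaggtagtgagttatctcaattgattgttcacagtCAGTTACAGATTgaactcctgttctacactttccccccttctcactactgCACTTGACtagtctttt
Rny3: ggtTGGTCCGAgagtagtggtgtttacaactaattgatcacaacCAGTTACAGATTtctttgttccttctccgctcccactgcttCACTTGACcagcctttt
Rmrp: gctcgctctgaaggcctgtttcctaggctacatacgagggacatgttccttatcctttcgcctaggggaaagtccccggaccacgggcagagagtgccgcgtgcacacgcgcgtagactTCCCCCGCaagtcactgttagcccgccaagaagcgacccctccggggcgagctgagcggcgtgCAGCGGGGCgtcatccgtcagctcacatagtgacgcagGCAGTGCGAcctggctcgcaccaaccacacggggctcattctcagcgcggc
Rpph1: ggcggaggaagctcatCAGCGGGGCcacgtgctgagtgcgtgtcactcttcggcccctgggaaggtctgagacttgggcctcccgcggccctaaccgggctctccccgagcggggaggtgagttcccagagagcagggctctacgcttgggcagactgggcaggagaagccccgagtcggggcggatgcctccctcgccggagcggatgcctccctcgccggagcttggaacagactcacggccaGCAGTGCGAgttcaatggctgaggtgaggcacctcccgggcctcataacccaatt
Rn7sk: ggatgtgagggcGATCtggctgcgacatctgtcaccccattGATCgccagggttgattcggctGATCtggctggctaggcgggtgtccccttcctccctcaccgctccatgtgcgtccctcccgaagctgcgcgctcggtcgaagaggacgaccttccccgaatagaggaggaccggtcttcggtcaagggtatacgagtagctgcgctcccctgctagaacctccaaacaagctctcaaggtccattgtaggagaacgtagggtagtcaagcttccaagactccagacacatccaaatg

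The Y RNAs share 28 bases in 3 such runs, the longest of 12 bases, in RNAs of 112 and 102 bases. They followed a like order across the libraries. Rny1 was measured at 209, 37.3, 110.0, 187 and 12.5 CPM in controls 1 to 5, and Rny3 at 583, 134, 411, 660.4 and 131 CPM. Both were lowest in controls 2 and 5, and the highest library exceeded the lowest by 16.7 times for Rny1 and 5.03 times for Rny3. Rpph1, Rmrp and Rn7sk differed far less, while the median SD over the 10 structured RNAs listed was 0.44 (log2 CPM). Rpph1 was measured at 4793, 4693, 4948, 4702 and 4845 CPM, a spread of 0.03 (SD of log2 CPM), Rmrp had a spread of 0.09 and Rn7sk of 0.11. Rn7s1 and Rn7s2, models of the 7SL RNA of the signal recognition particle, are identical over all 300 bases, so their levels of 1633 and 1656 TPM hold only what the authors' counting left to each of them and are uncertain.

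**Figure D1:**
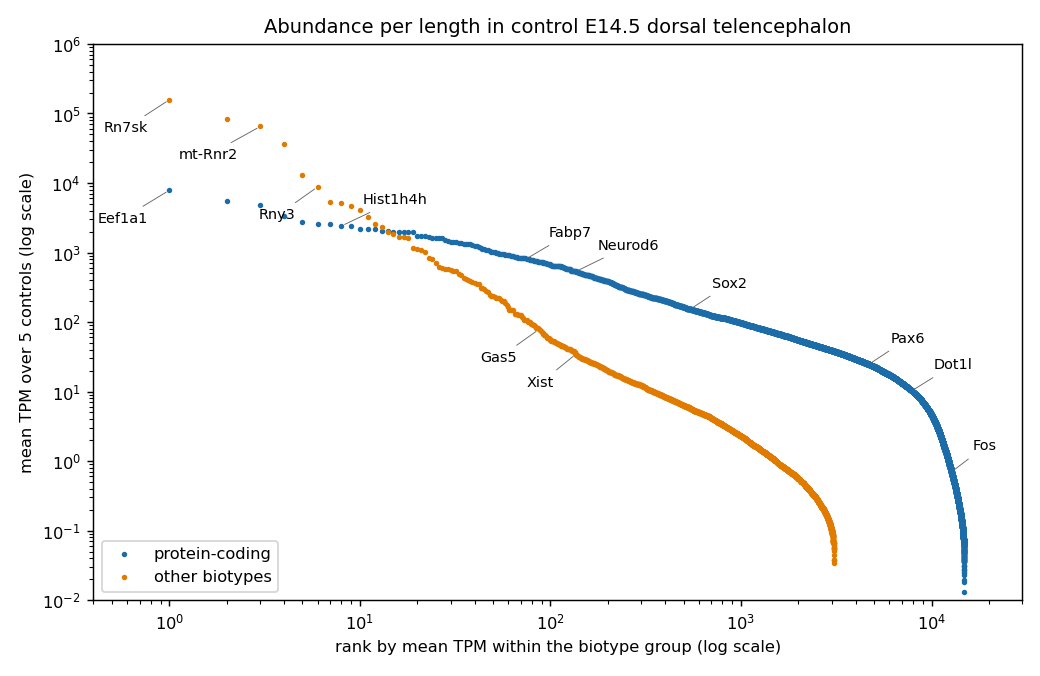
Mean TPM over the 5 controls (log scale) against rank within protein-coding genes (blue) and within all other biotypes (orange), for genes with a mean of at least 0.1 CPM. The orange series begins at 157271 TPM with Rn7sk, above Eef1a1 at 7857 TPM, the first of the blue series.

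Among protein-coding genes the order was led by genes of translation, the cytoskeleton and chromatin. Eef1a1, the elongation factor that brings aminoacyl-tRNA to the ribosome, was measured at 8613, 7977, 8089, 8255 and 7545 CPM and reached 7857 TPM ± 644. Tuba1a, the main alpha-tubulin of young neurons, had 5548 TPM ± 606, Actb 4847 TPM ± 314 and Tubb5, a beta-tubulin, 2757 TPM ± 142. The other protein-coding genes among the first 15 were the ribosomal proteins Rplp1 and Rps27rt, the chromatin-associated prothymosin gene Ptma, the actin-binding Tmsb4x, the elongation factor Eef2, the tubulin-binding Stmn1, the chaperone Hsp90ab1, the imprinted gene Nnat, the mitochondrial oxidase subunit mt-Co1 and the histone genes Hist1h4h and Hist1h2bb. The reads of Rps27rt, which is nearly identical to Rps27, and of the histone genes, which form families of near-copies, could have been split by the counting. Only 51 protein-coding genes had a mean of 1000 TPM or more and 964 of 100 TPM or more, against a median of 17.0 TPM over those at 1 CPM in every control.

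Histone messages of the replication-dependent clusters stood out by their length-corrected level. Hist1h4h, a histone H4 gene, had 2410 TPM ± 444, Hist1h2bb, an H2B gene, 2154 TPM ± 266, and the linker histone gene Hist1h1b 1948 TPM ± 411. Of 64 such genes, 58 reached 1 CPM in every control and 1 had no count. Together they took 1.08, 1.33, 1.23, 1.17 and 0.940% of the counts, lowest in control 5. Hist1h2ab, an H2A gene, had 211, 243, 232, 216 and 79 CPM, so control 5 lay well under the range of the other controls for it.

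Protein-coding genes of the nucleus took 85.01, 93.3, 93.0, 86.3 and 87.0% of the counts. The ribosomal RNAs of the mitochondrial chromosome took 9.08, 0.377, 0.492, 7.65 and 6.91%. mt-Rnr2, the large of these rRNAs, was measured at 87776, 3296, 4030, 68468 and 62904 CPM and mt-Rnr1, the small one, at 9042, 328, 573, 10793 and 6614 CPM. Controls 2 and 3 were thus low in both. The 13 protein-coding genes of the same chromosome differed less, with 0.334, 0.275, 0.285, 0.343 and 0.333% of the counts. The 100 most abundant genes held 25.1, 17.4, 17.5, 24.0 and 23.4% of the counts, and 17.7, 17.1, 17.1, 17.8 and 17.8% once chromosome M was left out.

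The other classes were small and mostly even. Genes of cytoplasmic ribosomal proteins took 3.82% ± 0.246 of the counts, with 82 of 85 at 1 CPM in every control. They had the narrowest spread among the classes with 10 or more genes measured. Their median SD was 0.088 (log2 CPM), close to 0.091 for nuclear respiratory chain and 0.096 for proteasome genes. Over the 15879 genes kept for this measure it was 0.19, but over genes of 300 to 1000 CPM only 0.125. Rplp0, a stalk protein of the large subunit, ranged only from 1316 to 1400 CPM. Tubulin genes took 1.19%, nuclear genes of the respiratory chain 0.870% and hnRNP genes, whose proteins coat nascent RNA, 0.768%. The hnRNP genes were uneven, at 0.676, 0.926, 0.934, 0.703 and 0.601%, with controls 2 and 3 highest. Spliceosomal snRNA genes took 0.156, 0.0734, 0.138, 0.150 and 0.129%, lowest in control 2, and collagen genes 0.0715, 0.104, 0.238, 0.0504 and 0.111%, highest in control 3. Families of other tissues were close to empty. None of the 39 Hox genes, which pattern the trunk and hindbrain, reached 1 CPM in every control, and of 1050 olfactory receptor genes 1005 had no count and 1, Olfr613, passed 1 CPM in every control, with 1.64 to 3.87 CPM. The reads at Olfr613 were not traced to a transcript.

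**Figure D2:**
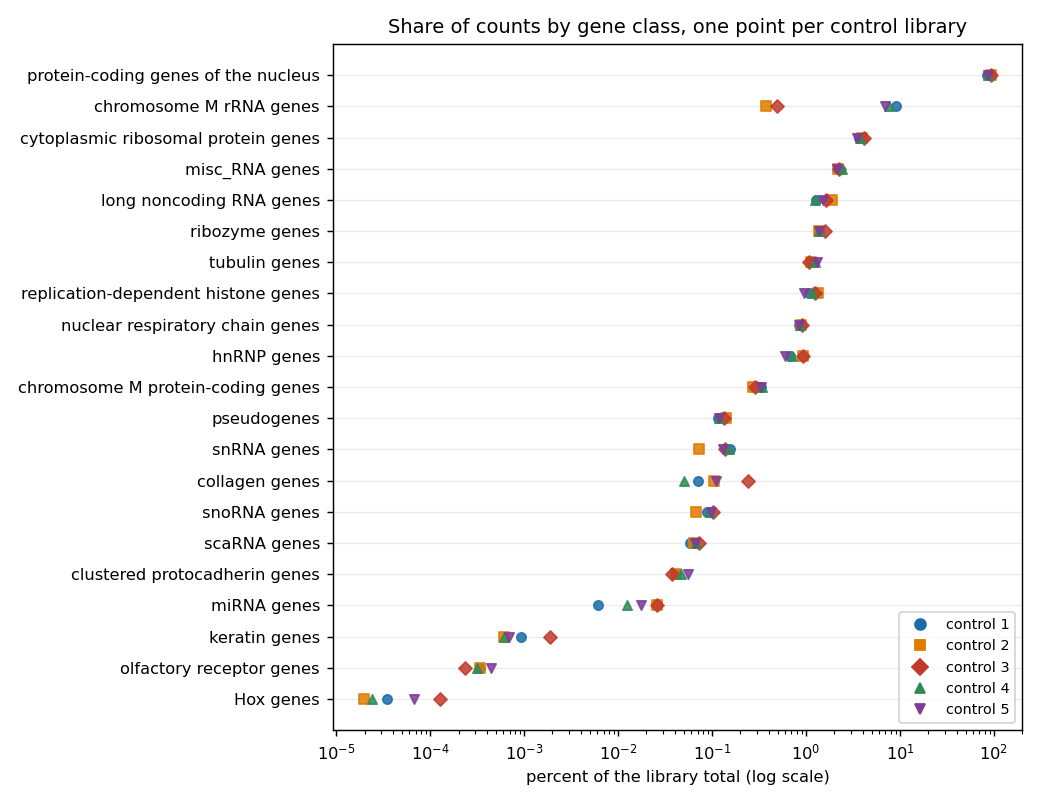
Percent of the library total (log scale) held by each gene class, with 1 point per control library. The rRNAs of chromosome M fall into controls 2 and 3 under 0.5% and controls 1, 4 and 5 at 6.91 to 9.08%, collagens are highest in control 3 (0.238%), and most other classes overlap within a narrow range.

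Long noncoding RNA genes took 1.51% ± 0.272 of the counts, and 0.875% ± 0.0910 without Gm26917 and Gm42418, models of this class that can catch reads of nuclear rRNA. Malat1, a nuclear RNA of speckles, was measured at 1455, 2199, 1960, 1397 and 1489 CPM and had 599 TPM ± 182. It was followed in the list of 17 named long noncoding RNAs by Gas5, the host of several snoRNAs, with 78.2 TPM ± 13.4, and by the imprinted H19 with 74.5 TPM ± 27.6. Neat1, the scaffold of paraspeckles, was the lowest of the list at 0.313 TPM ± 0.159. Gm26917, with 4039 TPM ± 1412, and Gm23935, with 5308 TPM ± 3469, headed such models and are not read as genes here. Gm23935 ranged from 23.1 CPM in control 1 to 192 CPM in control 2.

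All 12 markers of dorsal telencephalic identity reached 1 TPM in every control, and 9 reached 10 TPM. In bulk tissue a lower level can stand for fewer cells of a type or for less RNA per cell, and these cannot be told apart. Lhx2, a LIM homeodomain factor that selects cortical over hem fate, led with 150.1 TPM ± 27.0, Emx1 had 99.0 TPM ± 24.5 and Nr2f1, which patterns cortical areas along the rostrocaudal axis, 90.4 TPM ± 17.0. Pax6, a regulator of radial glia, was measured at 125, 134, 117, 119 and 98.9 CPM. Sp8, an area patterning factor, was the lowest of the list at 9.27 TPM ± 4.92. The summed CPM of the list were 2111, 2059, 2201, 2075 and 1948, a difference of 1.13 times between extremes, the smallest of the 25 lineage lists. Single members differed more, with a median SD of 0.33 (log2 CPM) against 0.19 over all genes kept, and 7 of the 12 were lowest in control 5.

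Progenitor markers were high in every control. Fabp7, a fatty acid-binding protein of radial glia, had 815 TPM ± 37.9, the intermediate filament gene Vim 460.2 TPM ± 34.8 and Nes, the intermediate filament nestin, 222 TPM ± 68.9. All 14 radial glia markers reached 10 TPM in every control, down to Sox9 at 17.5 TPM ± 7.33. Of the 7 markers of intermediate progenitors, the proneural factor Neurog2 was highest at 257 TPM ± 87.3, Eomes, the T-box factor that defines these cells, had 156 TPM ± 41.0, and Neurog1 was lowest at 14.2 TPM ± 4.38. Neurog2 was measured at 223, 289, 301, 193 and 159.9 CPM, and Eomes at 241, 305, 325, 236 and 219.6 CPM, so controls 2 and 3 were highest and control 5 lowest for both.

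The pan-neuronal list summed to more TPM than the progenitor lists, though whether its members are confined to neurons was not tested. The 12 pan-neuronal markers summed to 6118 TPM ± 570, against 2189 TPM ± 266 for the 14 radial glia markers and 762 TPM ± 203 for the 7 intermediate progenitor markers, sums that depend on the markers listed. Stmn1, which frees tubulin from microtubules, reached 2182 TPM ± 171 and Tubb3, the neuronal beta-tubulin, 1966 TPM ± 272. Tubb3 was measured at 1632, 1352, 1136, 1721 and 1812 CPM, lowest in controls 2 and 3. Rbfox3, the mature neuron protein NeuN, was lowest of the list at 17.3 TPM ± 3.74. The summed CPM of the list ran from 6665 in control 3 to 9770 in control 5, and 10 of its 12 members were lowest in control 3, which was the lowest library for 29.6% and the highest for 19.5% of the 11146 genes with a mean of 5 CPM or more.

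Markers of both deep and upper layers were on at this stage. Among the deep-layer markers Bcl11b, needed for corticospinal axons, had 104 TPM ± 14.3, Tbr1, a factor of layer 6 neurons, 84.1 TPM ± 11.3, Fezf2, a selector of subcerebral fate, 70.4 TPM ± 5.04, and Foxp2 was lowest at 5.2 TPM ± 1.08. Tbr1 was measured at 208, 173, 139, 223 and 218 CPM and Bcl11b at 338, 382, 321, 342 and 357 CPM, so that the libraries were spread more widely for Tbr1 (SD 0.29, log2 CPM) than for Bcl11b (0.09). Of the upper-layer markers, Pou3f3 and Pou3f2, POU factors that also act in progenitors, had 149 TPM ± 28.8 and 39.0 TPM ± 15.03. Cux1 had 31.6 TPM ± 2.54 and Rorb was lowest at 4.38 TPM ± 1.03. The order of Cux1 and Pou3f2 depends on the division by length. Their mean CPM were 262 and 88.4, over merged exons of 20024 and 5587 bases.

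The subplate and Cajal-Retzius lists were low apart from single genes. Nxph4 and Nr4a2 of the subplate had 13.7 TPM ± 4.66 and 12.6 TPM ± 1.84, while Cplx3, a complexin of later subplate neurons, had at most 1 count in any library. Reln, the extracellular signal of Cajal-Retzius cells, was measured at 358, 474, 500.1, 364 and 573 CPM and had 46.8 TPM ± 12.4. The other members reached 17.0 TPM ± 10.8 at most (Calb2).

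Of the list of 102 transcription factors of the cortex, 100 reached 1 TPM and 74 reached 10 TPM in every control. The highest per length was Ctnnb1, the beta-catenin effector of Wnt signalling, at 843 TPM ± 123, followed by the SoxC genes Sox11 at 754 TPM ± 96.2 and Sox4 at 539 TPM ± 62.2, which promote neuronal differentiation. Neurod6, a bHLH factor of young glutamatergic neurons, came next at 534 TPM ± 20.3. It was measured at 518, 446, 417, 530.3 and 472 CPM, lowest in controls 2 and 3. Its SD of log2 CPM was 0.145, against a median of 0.125 for genes of 300 to 1000 CPM. Zbtb18, a repressor needed for neuron migration, had 314 TPM ± 47.5, Neurod2 254 TPM ± 24.6 and Nfib, a nuclear factor of deep layers and glia, 246 TPM ± 19.9. Sox2 followed Eomes with 153 TPM ± 26.1. Neighbours such as Sox4 and Neurod6, or Neurog2, Neurod2 and Nfib, did not differ beyond their SD, so their order is not set by these data. Next to these, Dot1l itself was a gene of middling level, with 30.7, 40.8, 35.5, 40.7 and 35.9 CPM and 10.3 TPM ± 1.78.

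Proliferation was visible in every library. All 16 DNA replication markers and all 16 markers of mitosis reached 1 TPM in every control. The sliding clamp gene Pcna had 216 TPM ± 34.9, the nucleotide reductase subunit Rrm2 158 TPM ± 37.3 and the helicase subunit Mcm7 142 TPM ± 22.7. Top2a, the topoisomerase that untangles sister chromatids, had 217 TPM ± 30.2 and Mki67 121 TPM ± 10.7. Control 5 was lowest for all 16 replication genes and for 15 of the 16 mitotic genes, with summed CPM of 1610 and 2579 against 2014 to 2217 and 3196 to 3551 in the other controls. It was the lowest library for 31.2% of the 11146 genes.

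Immediate early genes, which are transcribed within minutes of stimulation, were low apart from Jun, Ier2 and Dusp1, the members at 10 TPM or more in every control. Jun was measured at 91.8, 113, 128, 98.3 and 81.9 CPM (78.7 TPM ± 20.04), while Fos had 0.767, 0.5, 0.841, 0.656 and 0.639 CPM and Npas4 stood at 0.126 TPM ± 0.0482. Of 17 such genes, 10 reached 1 TPM in every control. Among 17 glycolytic genes Pkm, a pyruvate kinase, was highest at 705 TPM ± 90.3 and Pfkp lowest at 3.94 TPM ± 1.12. The imprinted genes ran from Nnat, a small membrane protein gene of the developing brain, at 2013 TPM ± 307 through Ndn at 195 TPM ± 39.0 to Snurf, which had no count and whose reads overlap those of Snrpn. Igf2, a growth factor made by mesenchyme, was measured at 29.2, 22.1, 80.8, 16.7 and 45.7 CPM, highest in control 3.

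Some messages of mature glia were scarce, but not all members of the glial lists were. Gfap, the filament of mature astrocytes, was measured at 0.197, 0.121, 0.203, 0.0937 and 0.192 CPM, S100b at up to 0.128 CPM, and Mog, a myelin protein, had 2 counts in control 2 and none in the other controls. Aldoc, with 171 TPM ± 32.7, carried most of the astrocyte list, but it is a glycolytic enzyme that other cells use. Slc1a2 and Gja1 of the same list had 17.2 TPM ± 4.99 and 14.8 TPM ± 11.2. Of the oligodendrocyte lineage, Mbp, which has transcripts outside myelinating cells, had 6.06 TPM ± 0.895 and Pdgfra 5.31 TPM ± 3.76. Microglial genes were low, with summed CPM of 57.8, 55.8, 103, 47.7 and 78.4. C1qa had 4.21, 4.98, 7.94, 4.48 and 6.63 CPM, and 8 of the 10 members were highest in control 3. The endothelial tight junction gene Cldn5 had 25.0, 23.5, 36.5, 22.1 and 38.1 CPM and the pericyte gene Rgs5 28.6 TPM ± 3.90. Of the endothelial genes 9 of 10 were highest in control 3, all but Cldn5, against 19.5% of all genes of 5 CPM or more. The midbrain and hindbrain genes gave the floor of the measure, with 7 of 8 under 0.1 CPM on average.

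**Figure D3:**
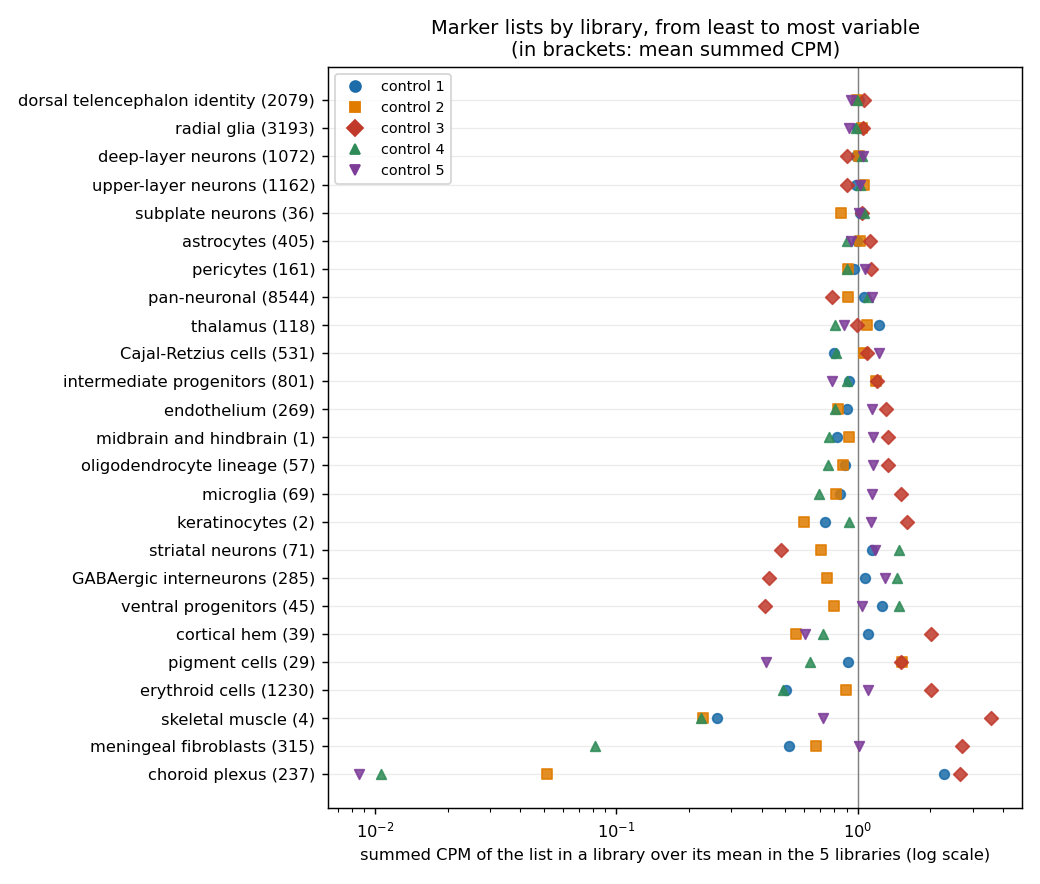
Summed CPM of each lineage list in a library divided by the list's mean over the 5 libraries (log scale), from the least variable list at the top to the most variable at the bottom. The cortical lists lie near 1 in all libraries, while meningeal fibroblast, skeletal muscle, erythroid and hem lists are highest in control 3 and the choroid plexus list is high in controls 1 and 3 alone.

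Among 25 lineage lists, 11 differed by 2 times or more in summed CPM between the highest and the lowest library, 6 without control 3. They were the choroid plexus, meningeal, muscle, erythroid, pigment cell, hem, ventral progenitor, interneuron, striatal, keratinocyte and microglia lists, and no list of cortical progenitors or glutamatergic neurons was among them. Choroid plexus genes parted the libraries most clearly. Ttr, the transthyretin that choroid epithelium secretes, was measured at 487, 1.59, 556, 0.234 and 0.511 CPM, Clic6, a chloride channel gene, at 23.4, 0.776, 37.9, 0.484 and 0.383 CPM, and Kcne2, a potassium channel subunit, at 14.0, 0.103, 15.8, 0.0156 and 0.0639 CPM. Controls 1 and 3 were high for all 3, and controls 2, 4 and 5 low. Ttr thus ranked 211 of all genes by mean TPM on account of 2 libraries. The split was read from these values, and the share of all genes that part the libraries in this way is not given. Otx2, a homeobox gene of choroid plexus and hem, was measured at 11.0, 9.50, 11.2, 1.19 and 0.463 CPM, so control 2 lay near controls 1 and 3 for Otx2 and far under them for Ttr.

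The cortical hem, the signalling edge next to the choroid plexus, showed a like order. Wnt3a, a Wnt ligand restricted to the hem at this stage, was measured at 2.91, 0.190, 6.13, 1.33 and 1.92 CPM and the Wnt agonist Rspo2 at 5.51, 0.862, 12.7, 2.73 and 2.68 CPM. All 6 hem genes were highest in control 3, and control 1 came second for each. Their summed CPM were 43.0, 21.7, 79.1, 28.05 and 23.6.

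Meningeal and blood genes also peaked in control 3. Col3a1, a fibrillar collagen of meningeal fibroblasts, was measured at 84.96, 126, 445, 10.03 and 175 CPM and Lum, a proteoglycan of the same cells, at 5.47, 5.55, 20.5, 0.297 and 6.50 CPM. All 9 meningeal genes were highest in control 3 and lowest in control 4, and their summed CPM were 163, 212, 854, 25.6 and 318, a difference of 33.3 times. The haemoglobin gene Hbb-bs had 193, 354, 881, 209.7 and 490.2 CPM and the embryonic Hbb-y 165, 296, 529.7, 97.9 and 314 CPM. All 10 erythroid genes were highest in control 3. Hbb-bs at 1387 TPM ± 995 ranked 51 of all genes, and the haemoglobin genes are near-copies of each other whose reads may be split.

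Messages of muscle, and 4 of the 5 keratinocyte markers, were highest in control 3. Myh3, the embryonic myosin heavy chain of skeletal muscle, was measured at 0.393, 0.362, 8.12, 0.281 and 0.974 CPM, Ttn, the sarcomere protein titin that is not of the list, at 1.61, 1.84, 35.9, 0.796 and 3.80 CPM, and Krt5, a keratin of basal epidermis, at 0.0590, 0.207, 1.59, 0.109 and 0.256 CPM. These are low levels, of which control 5 held the second highest. Krt1, the most abundant keratinocyte marker, was instead highest in control 5, with 1.34, 0.965, 1.15, 1.78 and 2.06 CPM. Summed over the 6 muscle genes they came to 1.16, 1.02, 15.9, 1.00 and 3.18 CPM. The muscle factor Myog reached 0.594 CPM in control 3 and had no count in controls 1 and 2.

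At the ventral edge control 3 was the lowest library. Dlx1, a homeobox gene of the ganglionic eminences and of the interneurons born there, was measured at 68.4, 57.5, 14.496, 103 and 73.2 CPM, and Gad2, an enzyme of GABA synthesis, at 48.0, 21.5, 7.34, 60.9 and 51.2 CPM. Of the 12 interneuron genes 9 were lowest in control 3 (29.6% of all genes of 5 CPM or more) and the other 3 in control 2, while 7 were highest in control 4 and 5 in control 5. Isl1, a factor of striatal projection neurons, was measured at 14.511, 14.6, 0.594, 19.6 and 11.1 CPM, so that control 3 lay 33.0 times under control 4. Sst, the neuropeptide of one interneuron class, followed another order, with 25.4, 6.57, 8.39, 31.1 and 39.3 CPM. Summed CPM of the interneuron list were 306, 212, 122, 417 and 369.

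Single libraries also stood out for some regional genes. Nkx2-1, the selector of the medial ganglionic eminence, was measured at 0.138, 3.55, 0.145, 0.203 and 0.335 CPM, and Lhx8, its target in the same domain, at 0.256, 2.46, 0.0435, 0.187 and 0.192 CPM, so both were high in control 2 alone. Gbx2, a homeobox gene of the thalamus, had 101, 5, 3, 1 and 2 counts, or 1.99 CPM in control 1 and at most 0.0862 CPM in the other controls. Of the 5 thalamus genes 4 were highest in control 1, which was highest for 19.7% of all genes of 5 CPM or more. Slc17a6 was highest in control 2. Summed CPM of the thalamus list were 144, 129, 117, 95.2 and 103. Nkx2-1 and Lhx8 were picked after their values were seen, and at these levels they rest on 206 and 143 counts. The X-inactivation RNA Xist was measured at 316, 431, 209, 0.234 and 286 CPM and the Y-linked demethylase gene Kdm5d at 0.0393, 0.0345, 0.101, 67.9 and 0.256 CPM. Control 4 was high for the Y-linked gene and close to the floor for Xist, and the other controls were the reverse.

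**Figure D4:**
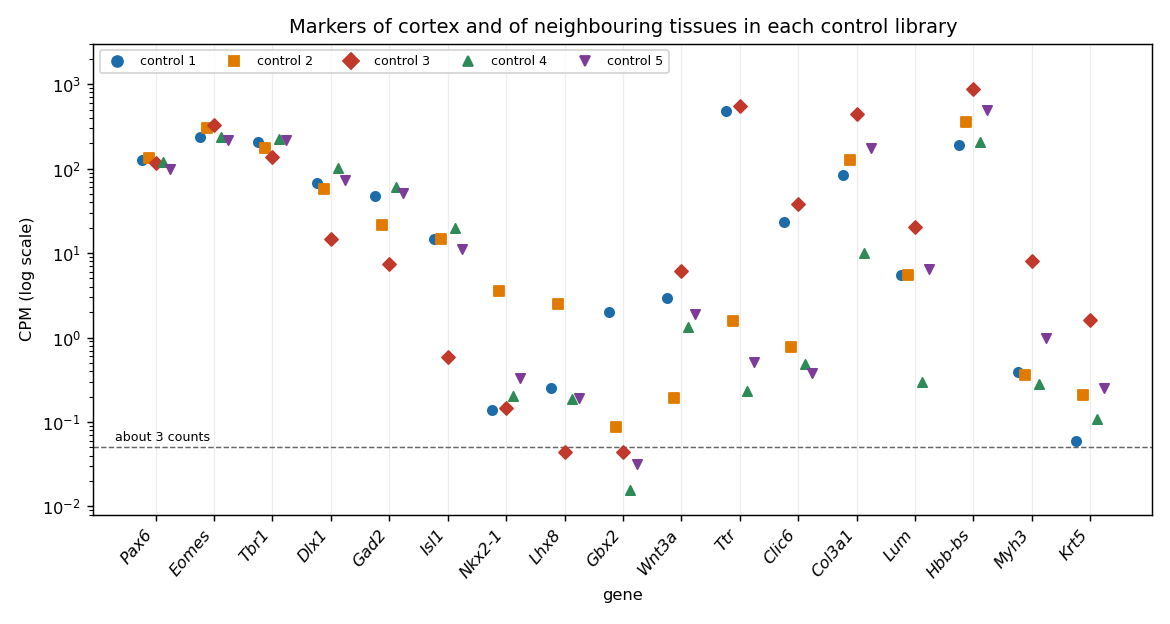
CPM (log scale) of single marker genes in each of the 5 control libraries, with a dashed line at about 3 counts. Pax6, Eomes and Tbr1 differ less between libraries than the other genes shown. Ttr and Clic6 are high in controls 1 and 3, and Nkx2-1 and Lhx8 in control 2. Gbx2 is high in control 1, and Myh3 and Krt5 in control 3.

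Over all genes the libraries were close. The median distance of a library from the mean of the other 4 was 0.13, 0.15, 0.19, 0.13 and 0.19 (log2 CPM) in controls 1 to 5. Between pairs, Pearson's r of log2 CPM across genes, which are not independent replicates, lay between 0.975 and 0.991. The closest pair by genes apart was controls 1 and 4, with 341 of 15879 genes 2 times or more apart. The most distant were controls 3 and 5, with 1252. By the median difference (log2 CPM) controls 2 and 3 were the closest, at 0.137, with controls 1 and 4 at 0.143. The first principal component held 49.3% of the variance and ran from control 4 to control 3. The biological coefficient of variation that edgeR estimated was 0.205 over the 5 controls, 0.151 over controls 1, 4 and 5 and 0.2 over controls 2 and 3.

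The spread fell with abundance and then levelled. Its median was 0.34 (SD of log2 CPM) for genes of 1 to 3 CPM, 0.16 for genes of 10 to 30 CPM and 0.12 for genes of 300 to 1000 CPM, where counting error alone would give 0.01. Ttr had the widest spread of the 11146 genes of 5 CPM or more, at 5.40, followed by Xist at 4.55, the Y-linked Ddx3y at 4.36 and Kdm5d at 4.19. Besides the choroid, meningeal, muscle and sex-linked genes already named and the mitochondrial rRNAs, the widest group held Gm8797, with 31.6 CPM in control 3 and 0.531 to 1.17 CPM in the other controls, and Lars2, a gene model that can catch rRNA reads, with 6.86, 17.7, 225, 42.6 and 119 CPM. At the narrow end stood Fbh1, a DNA helicase gene, with 117 to 118 CPM, and Aco1, the cytosolic aconitase and iron sensor, with 114 to 115 CPM. They were picked as the extremes of 11146 genes, and their SD is under counting error. Of these genes 69 had an SD over 1 and 3196 under 0.1.

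**Figure D5:**
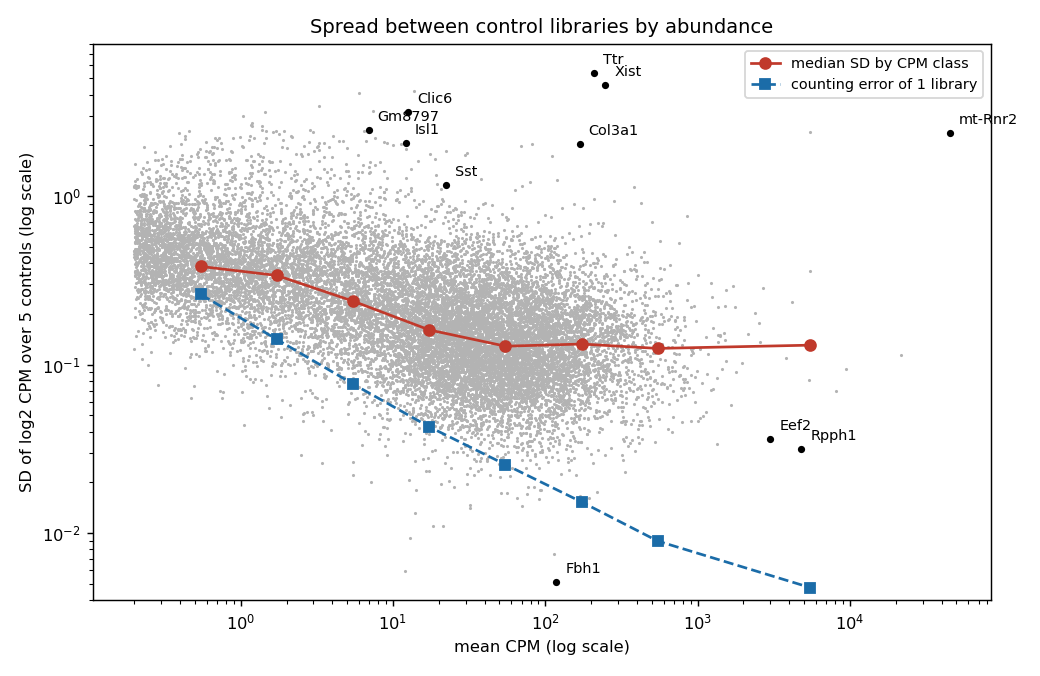
SD of log2 CPM over the 5 controls against mean CPM (both log scales) for every gene with a count in all of them and a mean of at least 0.2 CPM. The red line is the median in each CPM class and the blue dashed line the counting error of 1 library, with the median at 0.38 against 0.26 under 1 CPM and 0.13 against 0.0048 at 1000 CPM or more.

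The column names of the deposited normalised tables open with a number that no source used here explains. Controls 2 and 3 share the number 57, and each other control carries a number of its own. Controls 2 and 3 were set against controls 1, 4 and 5 with edgeR's quasi-likelihood test and Benjamini-Hochberg adjustment (adjusted p under 0.05). Of 17554 genes tested 585 were called (3.33%), 217 higher (1.24%) and 368 lower (2.1%) in controls 2 and 3, and 3924 had an unadjusted p under 0.05. The count is fragile: without control 4 or without control 5 only mt-Rnr2 was called, and without controls 1, 2 or 3 in turn 239, 184 and 38 genes were. DESeq2 called 2325.

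mt-Rnr2 was lower in controls 2 and 3, with a log2 difference of -4.32 ± 0.19 (SE, edgeR adjusted p = 0.00266), and so was mt-Rnr1, with -4.29 ± 0.34 (edgeR adjusted p = 0.0183). Of the 12 mitochondrial protein-coding genes tested, mt-Cytb and mt-Nd5 were lower. Among the genes higher in controls 2 and 3, 7 were of the 20 hnRNP genes (35.0% against 1.24% of all genes), with Hnrnpa2b1 the furthest apart. Hnrnpa2b1 was measured at 345, 726, 790.0, 391 and 259 CPM, a log2 difference of 1.19 ± 0.17 (edgeR adjusted p = 0.0297). Ncl, the nucleolar protein nucleolin, was measured at 144.8, 327, 348, 161 and 126 CPM, and Sox3, a SoxB1 factor of progenitors, at 27.3, 62.2, 69.6, 32.5 and 24.2 CPM, log2 differences of 1.23 ± 0.11 and 1.23 ± 0.13 (edgeR adjusted p = 0.0206 and 0.0240). For all 3, which the test had called, the libraries of the 2 sets did not overlap. The share of such genes over all tested is not given, so this is not read as a result.

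Over all genes tested, 1.24% were higher and 2.1% lower in controls 2 and 3, against which the counts of single markers are to be read, and 1 call in a list of 7 to 12 genes is a single gene. Of the 14 radial glia genes Nes, Sox9 and Hopx were higher in controls 2 and 3 and none lower. Fabp7 and Vim, the highest of the radial glia list, had log2 differences of -0.15 and -0.10 and were not called. Of the 12 identity genes Emx1 and Dmrta2 were higher, and of the 7 intermediate progenitor genes Eomes. Tubb3 was the one pan-neuronal gene called and was lower, with a log2 difference of -0.47 ± 0.09. Cux2, an upper-layer gene, was lower, with -0.74 ± 0.14 (edgeR adjusted p = 0.0494). Of the 12 interneuron genes Sst, Lhx6 and Npy were lower, and of the 11 striatal genes Ebf1, Rxrg, Ikzf1 and Tac1. The median log2 difference was 0.22 over the radial glia list and -0.28 over the pan-neuronal list, against 0.01 over all genes. It was -1.18 over the interneuron list and -1.01 over the striatal list. The striatal value was that of Isl1, at 14.6 CPM in control 2 and 0.594 CPM in control 3. For Isl1 control 2 thus lay within the 11.1 to 19.6 CPM of controls 1, 4 and 5. Summed CPM of the striatal list were 49.8 and 34.2 in controls 2 and 3 and 81.2 to 105 in the others. Summed CPM of the interneuron list were 212 and 122 in controls 2 and 3 and 306 to 417 in the others, and those of the meningeal list 212 and 854 against 25.6 to 318. Their part in the other calls was not tested.

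The same numbers stand in the column names of the 5 Dot1l-cKO samples, 57 again for replicates 2 and 3, which share no library with the controls. There the same split gave 0 edgeR calls of 17581 genes (0%), with 2615 genes at an unadjusted p under 0.05 and 829 DESeq2 calls. Of the 581 genes called in controls and tested there, 549 had the same sign, against 10879 of 17131 of all genes tested in both. The same sign does not mean a like size. Of the interneuron genes called in controls, Sst, Lhx6 and Npy had log2 differences of -0.87, -0.996 and -0.03 there. The striatal genes Ebf1, Rxrg, Ikzf1 and Tac1 had -0.02, -0.27, -0.74 and -0.57. mt-Rnr2 had a log2 difference of -5.77 there, with an edgeR adjusted p of 0.102. Whether the number stands for a day, a litter or a sequencing run cannot be told from the labels.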

How the data were processed

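Total RNA of dorsal telencephalon was depleted of ribosomal RNA and sequenced with a stranded kit. The submitters' notes name Trim Galore 0.2.8, TopHat2 2.0.9 on mm10, HTSeq 0.6.0 with reverse strand and DESeq2 1.6.1. The deposited counts are raw reads per gene, made by the authors with HTSeq and not normalised. The deposited normalised signal is the authors' counts divided by DESeq2 size factors, and was used for alternatives only.

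The 5 control libraries (54202349 to 66310598 counts) were analysed with Python 3.11.15, R 4.3.3 and edgeR 4.0.16, with DESeq2 1.42.0 as an alternative. CPM were TMM-scaled, and log2 CPM used a prior count of 2. TPM used merged exon lengths of GENCODE vM21, which held 42548 of 43629 identifiers. The unmatched identifiers took 0.176% of the counts. Spread was measured over the 15879 genes that edgeR's filterByExpr kept. The controls were grouped by the number in the column names of the normalised tables for the quasi-likelihood test with Benjamini-Hochberg adjustment.

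Some genes of the lists, and the Cre driver, are not reported here. The members and gene lists were chosen with earlier results of these data known. Named genes were the 15 most abundant protein-coding genes by TPM and 10 genes by CPM, the 12 leading transcription factors, the 3 highest members and the lowest member of each list, the 15 most and 10 least variable genes of 5 CPM or more, the 8 largest differences in each direction in the test, and Dot1l. Not all of these are printed, and genes outside this rule, such as Pax6, Gad2, Rny1 and Hnrnpa2b1, were named after their values were seen.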

Additional observations from a re-analysis of the deposited data

Results flagged for a closer look

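Among 206 values compared over the 5 controls, 26 had a single library set apart from the other 4 by a wide gap relative to their range (Dixon's ratio over 0.71). In values not chosen for their pattern chance gives about 1 in 20, but these values include genes named for their wide spread or after they were seen, and sums that hold single genes also compared, so the count cannot be read against that rate. Of these 9 fell on control 3, 8 on control 2, 5 on control 4, 3 on control 5 and 1 on control 1.

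Control 3 was the highest library for Myh3, Ttn, Myog and Krt5. Myh3 stood at 8.12 CPM against 0.281 to 0.974 CPM in the other controls, Ttn at 35.9 CPM against 0.796 to 3.80, Myog at 0.594 CPM against 0 to 0.112, and Krt5 at 1.59 CPM. The skeletal muscle list summed to 15.9 CPM, and the keratin genes took 0.00188% of the counts. Control 3 was also highest for Gm8797 at 31.6 CPM and for the ribozyme genes, chiefly Rmrp and Rpph1, at 1.599% of the counts against 1.37 to 1.38%. It was lowest for the summed cortical transcription factors, at 17995 CPM against 19129 to 19575 CPM.

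Control 2 was the highest library for 4 transcription factors, though over the whole cortical transcription factor list it was highest for 24 of 102 genes, near its 21.9% over all genes of 5 CPM or more. Nkx2-1 stood at 3.55 CPM, Lhx8 at 2.46 CPM, Sp8 at 30.3 CPM against 11.1 to 15.5 CPM, and Pou3f2 at 134 CPM against 68.1 to 85.1 CPM. Calb2, a calcium-binding protein gene, had 23.0 CPM and the imprinted Ndn 357 CPM, while Mog was listed at 0.0345 CPM on 2 counts. The subplate list was lowest in control 2, at 30.5 CPM against 36.2 to 37.7 CPM.

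Control 4 was the only library with high Y-linked expression, with Kdm5d at 67.9 CPM, Ddx3y at 46.3 CPM and Y chromosome genes at 0.0189% of the counts. It was lowest for Zbtb18, at 676 CPM against 806 to 858 CPM, and listed Cplx3 at 0 CPM against 1 count in each other library. Control 5 was lowest for Hist1h2ab at 79 CPM, for Pcna at 169.9 CPM against 219 to 233 CPM, and for Rps27rt at 276 CPM. Control 1 was highest for Gbx2 at 1.99 CPM.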

How the results depend on the processing

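No paired analysis was possible because the comparisons lie within the control group, where each replicate number occurs once. Without chromosome M genes the 100 most abundant genes held 17.5% of the counts, and the percent of counts in protein-coding genes was 93.8. The count of genes called between controls 2 and 3 and the other controls was 585, and became 1238 with no low-count filter, 2325 with DESeq2 and 1 at an adjusted p under 0.01. It ranged from 1 to 239 when 1 control was left out, where a lone remaining library of controls 2 and 3 was assumed to vary like the others. The low end was reached without control 4 and without control 5. The number of lineage lists 2 times or more apart was 11, ranged from 6 (without control 3) to 11 with 1 control left out, and was 5 without controls 2 and 3, a setting chosen after seeing the data. Without Gm26917 and Gm42418, a choice made after seeing the data, the percent of counts in long noncoding RNA genes was 0.875 rather than 1.51. On a scale of protein-coding genes only, the named genes' TPM were 1.58 to 1.93 times as high, by the median over them in each library. With the longest transcript in place of the merged exons, the mean TPM of 44 of 139 named genes moved by their SD or more. So did 8 of 34 list sums, so orders between genes by TPM depend on the length used. For these libraries the depth limits values under 3 counts, 0.0435 to 0.0590 CPM.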
